A study of Mus musculus with 11 samples.

Results

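The proteasome subunit genes were followed in mouse microglia, the resident macrophages of the brain, that had been transplanted, kept in culture or left in place. Members were the protein-coding genes whose symbol starts with Psma, Psmb, Psmc, Psmd, Psme, Psmf or Psmg and a number, without the interferon-induced Psmb8 and Psmb9. The rule named 49 of the 16894 genes in the deposited table, and used symbols and not expression. All 49 were in the table, and 48 passed the filter on low counts in each comparison. The thymus-specific beta subunit Psmb11 did not, at a mean TPM (a level per transcript length, scaled to the same sum in each library) of 0.165 in transplanted cells, 0.0233 in cultured cells and 0.117 in resident cells. RNA was sequenced from 4 libraries of transplanted microglia sorted 3 months after transplantation, 3 of cultured primary microglia and 4 of sorted resident microglia. All carried the Cx3cr1-GFP genotype, a green fluorescent reporter of microglia and related myeloid cells. Every library's label carries a protocol in which mice ate chow with PLX3397 at 600 mg/kg for 3 cycles, which removes their own microglia by blocking Csf1r, and were transplanted after the drug was stopped. It is not stated if donors of resident cells had this diet, if cultured cells were the source of the transplant, or if replicates are separate animals or cultures. Each p-value therefore measures the spread between these libraries, which may be technical. The design sets transplanted cells beside both other groups to see how near their expression comes to that of microglia in place.

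The proteasome is the barrel-shaped protease that degrades proteins tagged with ubiquitin. Its 20S core particle stacks rings of alpha subunits, which gate the entry, around rings of beta subunits, some of which carry the catalytic sites. The 19S regulatory particle caps the core: the ATPases and scaffolds of its base unfold substrates, and its lid removes ubiquitin. In macrophages the proteasome also makes peptides for display on MHC class I and degrades regulators of inflammatory signalling.

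Total expected counts were 18692721 to 19761208 per transplanted library, 26705034 to 28219696 per cultured library and 19055655 to 19965631 per resident library. Expression was more concentrated in culture: the top 10 genes took 25.1% to 26.5% of a cultured library's counts, and 11.9% to 13.2% of those of any sorted library. Libraries of a group differed by more than sampling noise, and cultured replicate 2 and resident replicate 1 lay farthest from the others of their groups. The 10 microglia markers were all detected in every group, but cultured cells held little of them: they summed to 46323.7 to 53478.5 TPM in transplanted, 1461.1 to 2340.5 TPM in cultured and 50883.6 to 57550.2 TPM in resident libraries. Markers of border macrophages and monocytes summed to 1459.5 to 2157.8 TPM in transplanted, 83339.2 to 94346.3 TPM in cultured and 663.3 to 1051.5 TPM in resident libraries, most of it from the lysozyme gene Lyz2. The cell cycle genes summed to 62.2 to 89.7 TPM in transplanted, 155.6 to 176.8 TPM in cultured and 63.9 to 95.3 TPM in resident libraries. Neuron markers stayed at or under 4.0 TPM in sum in every library. Oligodendrocyte markers summed to 65.0 to 72.4 TPM in transplanted, 22.3 to 27.8 TPM in cultured and 62.3 to 67.5 TPM in resident libraries. Of these, Mog was at 0 in every cultured library. Astrocyte markers summed to 79.3 to 141.6 TPM in transplanted and 111.8 to 142.3 TPM in resident libraries. In cultured libraries the astrocyte sum was at most 32.5 TPM. The part that these differences between the groups play in the results below was not tested, and in bulk RNA fewer cells of a type and less RNA per cell cannot be told apart.

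Per unit of length, core genes were more abundant than regulatory particle genes in every library. The median over the 14 genes of the constitutive 20S core was 193, 191, 197 and 177 TPM in transplanted, 281, 332 and 278 TPM in cultured and 221, 218, 225 and 229 TPM in resident libraries. Over the 17 genes of the 19S particle the median was 112, 114, 117 and 103 TPM in transplanted, 90.7, 84.2 and 91.3 TPM in cultured and 123, 119, 129 and 123 TPM in resident libraries. Cultured libraries were thus the highest of the groups for the core and the lowest for the 19S particle on this scale. The ratio of the core median to the 19S median was 1.72, 1.68, 1.69 and 1.72 in transplanted libraries, 3.10, 3.94 and 3.05 in cultured libraries and 1.80, 1.83, 1.75 and 1.86 in resident libraries. No cultured library overlapped the other groups in this ratio, and every transplanted library lay below every resident library.

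**Figure D1:**
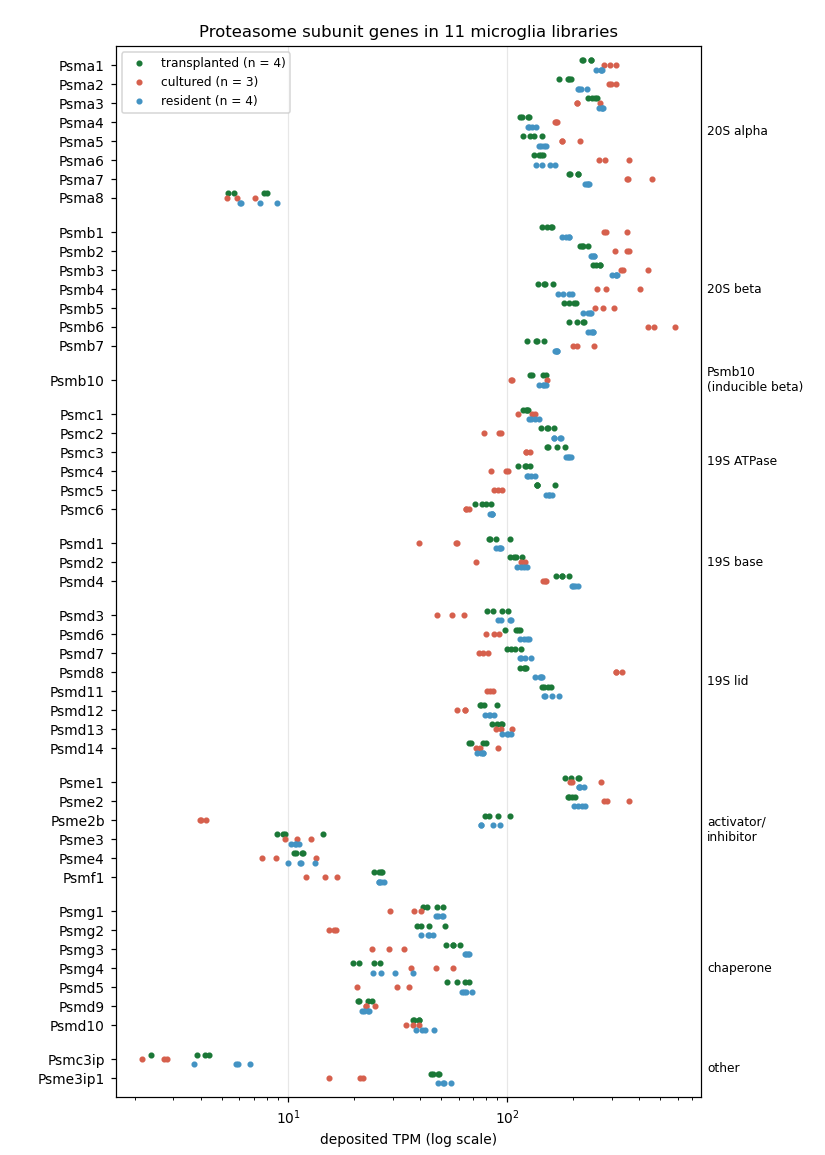
Deposited TPM (log scale) of the 48 proteasome genes other than Psmb11 in each of the 11 libraries, by subcomplex; each point is 1 library, with 4 transplanted, 3 cultured and 4 resident libraries. Cultured libraries lie to the right of the others for most alpha and beta subunits and to the left for most 19S subunits, with Psmd8 at 314 to 334 TPM as the exception among 19S genes.

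Subunits built in equal number into the core differed in level. The highest core gene exceeded the lowest by 2.25, 2.11, 2.03 and 2.19 times in transplanted, 2.62, 3.46 and 2.80 times in cultured and 2.43, 2.39, 2.51 and 2.31 times in resident libraries. Across the 19S genes it was 2.6, 2.5, 2.2 and 2.5 in transplanted, 6.56, 7.89 and 5.75 in cultured and 2.72, 2.70, 2.67 and 2.58 in resident libraries. The wide span in culture includes Psmd8 as its highest gene; among the 19S ATPases alone the span was 2.20, 2.17, 2.07 and 2.14 in transplanted, 2.01, 1.88 and 2.01 in cultured and 2.23, 2.19, 2.24 and 2.35 in resident libraries, narrowest in culture.

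Cultured microglia had more core transcripts than resident microglia, relative to other genes, and the 19S genes lay between the core and the average gene. In expected counts with TMM scaling, 38 of the 48 members were higher and 3 lower in cultured than in resident cells at an adjusted p under 0.05 (edgeR's quasi-likelihood test, Benjamini-Hochberg adjustment over all 12406 genes tested, as for every adjusted p below unless limma is named). Of all genes tested, 75.1% were called in this comparison, 37.9% as higher and 37.2% as lower. The members' 41 calls of 48 lie not far above that background, and their direction is one-sided. The median log2 fold change of the members was 0.89, against -0.02 for all genes. Count levels did not overlap between the groups at 40 members, and at 75.7% of all genes tested. Every one of the 14 core genes was higher (median 1.56, range 0.63 to 2.16). In the 19S particle 14 of 17 genes were higher (median 0.65, range 0.16 to 2.29).

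The direction of the 19S genes depended on the scale. On the deposited TPM (limma on log2(TPM + 1)) the median over all genes was itself -0.95 and 20.3% of calls were higher, against 50.5% in counts. There, 14 members were higher and 21 lower with a median of -0.21, where 17.4% of all genes tested were called higher and 68.2% lower. The core had 11 genes higher and 1 lower (median 0.42), and the 19S particle 1 higher and 12 lower (median -0.45). Relative to the median of all genes, the core stood at 1.57 in counts and 1.38 in TPM, and the 19S particle at 0.67 in counts and 0.50 in TPM. With each library's trend of count on gene length removed before the edgeR test, 23 members were higher and 10 lower, where 34.4% of all genes were higher and 39.4% lower. The medians were then 0.46 for the core and 0.15 for the 19S particle, against -0.11 for all genes.

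**Figure D2:**
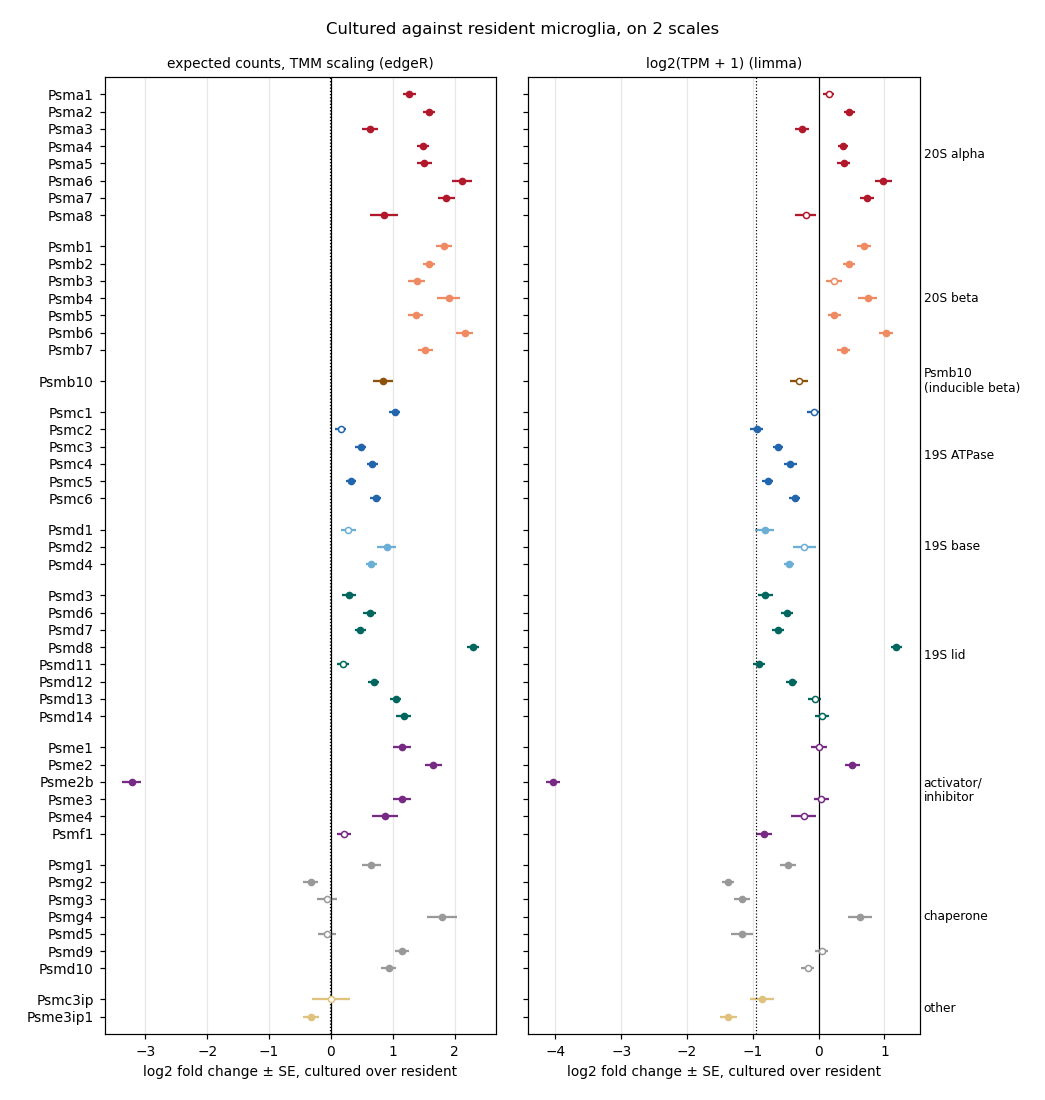
Log2 fold change ± SE of each member in cultured (n = 3) over resident (n = 4) microglia, in expected counts with TMM scaling (left) and in log2(TPM + 1) (right); filled points have an adjusted p under 0.05, and the dotted line is the median of all genes tested. Psmd8, Psmb6 and Psma6 lie farthest to the right on both scales and Psma3 is the one core gene left of 0 in TPM, while most 19S genes lie right of 0 on the left and left of 0 on the right, where the median of all genes is -0.95.

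Among the alpha ring genes, Psma7, whose product sits in the gated ring, had 211, 193, 211 and 192 TPM in transplanted libraries, 357, 459 and 351 TPM in cultured libraries and 232, 237, 233 and 227 TPM in resident libraries. All cultured libraries lay above all others, and the sorted groups did not overlap either. It was 3.65-fold higher in cultured than in resident cells (log2 fold change 1.87 ± 0.14, adjusted p = 2.50e-06). The largest difference of the ring was at Psma6, at 139, 142, 145 and 133 TPM in transplanted libraries, 262, 358 and 279.8 TPM in cultured libraries and 144, 157, 136 and 164 TPM in resident libraries. Its cultured libraries stood above the rest, its transplanted and resident libraries overlapped, and its log2 fold change was 2.12 ± 0.16, adjusted p = 2.24e-06 in cultured against resident cells. The smallest was at Psma3, with 234, 245, 256 and 251 TPM in transplanted libraries, 207, 265 and 209 TPM in cultured libraries and 271, 274, 269.7 and 264 TPM in resident libraries. Psma3 overlapped between cultured and resident libraries in TPM: in counts it was higher in cultured cells (0.63 ± 0.13, adjusted p = 0.00143), and in TPM it was lower (limma -0.26 ± 0.11, adjusted p = 0.0485). Its TPM call was lost with no filter (limma, adjusted p = 0.0542). The remaining constitutive alpha genes, Psma1, Psma2, Psma4 and Psma5, had log2 fold changes of 1.27 to 1.59 in counts. Psma8, a testis-specific alpha subunit, was low at 5.27 to 8.91 TPM over all libraries; in counts it was higher in cultured than in resident cells (0.86 ± 0.23, adjusted p = 0.00687), and in TPM the groups overlapped.

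All 7 constitutive beta genes were higher in cultured cells in counts, and in TPM every cultured library lay above every resident library at each of the 7. The share of all genes with such a separation in TPM was not measured. Psmb6, which carries the caspase-like site, had 221, 224, 208 and 191 TPM in transplanted libraries, 438, 581 and 466 TPM in cultured libraries and 233, 245, 245 and 240.3 TPM in resident libraries. Every cultured library lay above every sorted one, every transplanted library lay below every resident one, and in counts the gene was 4.47-fold higher in cultured than in resident cells (log2 fold change 2.16 ± 0.14, adjusted p = 9.98e-07). The difference held in TPM (limma 1.03 ± 0.11, adjusted p = 2.16e-05). Psmb5, which carries the chymotrypsin-like site that proteasome inhibitor drugs bind, had 191, 206, 202 and 181 TPM in transplanted libraries, 273, 308 and 252 TPM in cultured libraries and 235, 222, 242 and 239.6 TPM in resident libraries. The groups were in the same order and did not overlap, with a smaller difference (log2 fold change 1.37 ± 0.12, adjusted p = 7.23e-06 in counts, limma 0.24 ± 0.10, adjusted p = 0.0449 in TPM). Once the length trend was removed, Psmb5 stood at -0.02 ± 0.09, adjusted p = 0.853. Psmb7, which carries the trypsin-like site, had 124, 147, 137 and 135 TPM in transplanted libraries, 200.1, 249 and 209 TPM in cultured libraries and 168, 169.6, 167 and 165 TPM in resident libraries. Its groups kept that order without overlap, and its log2 fold change was 1.53 ± 0.12, adjusted p = 4.24e-06 in cultured against resident cells. Psmb7 shares 405 exon bases with Nek6 on the opposite strand in the reference annotation. The labels give no strand, so reads of the shared stretch cannot be told apart, and the same holds for Psmc3ip with Mlx (385 bases), Psmd13 with Sirt3 (152 bases) and Psmc3 with Slc39a13 (97 bases). Psmd1 shares 301 bases with Gm21972 and Psmg3 237 bases with Gm26938 on the same strand, where strand would not separate the reads.

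The non-catalytic beta subunits followed the same order. Psmb3 had 264, 264, 254 and 246 TPM in transplanted libraries, 329, 439.6 and 338 TPM in cultured libraries and 315, 299, 316 and 312 TPM in resident libraries, and its log2 fold change was 1.38 ± 0.14, adjusted p = 2.07e-05 in cultured against resident cells. The cultured libraries were highest and the transplanted ones lowest at this gene, without overlap. It was the one core gene called lower once the length trend was removed (-0.33 ± 0.08, adjusted p = 0.00544); its transcript is the shortest of the core, at 0.18 of the length of the median gene. Psmb4 had 149.6, 162, 147 and 138 TPM in transplanted libraries, 284, 402 and 258 TPM in cultured libraries and 191, 197, 171 and 179 TPM in resident libraries, and Psmb1 had 152, 161, 158 and 144 TPM in transplanted libraries, 278, 350.5 and 283 TPM in cultured libraries and 178, 192, 186 and 192 TPM in resident libraries. Both were higher in cultured than in resident cells, by 3.74-fold and 3.54-fold in counts, and cultured replicate 2 was the highest library at each.

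Psmb10 encodes the interferon-inducible subunit that takes the place of Psmb7 in the immunoproteasome. It had 127, 149.9, 145 and 129 TPM in transplanted libraries, 104, 152 and 105 TPM in cultured libraries and 146, 139.5, 151 and 148 TPM in resident libraries, and these groups overlapped. In counts it was higher in cultured than in resident cells (log2 fold change 0.84 ± 0.17, adjusted p = 0.00128), less than its constitutive counterpart. The ratio of Psmb10 to Psmb7 TPM within a library does not depend on the scaling of the library, and was 1.03, 1.02, 1.06 and 0.96 in transplanted libraries, 0.52, 0.61 and 0.50 in cultured libraries and 0.87, 0.82, 0.90 and 0.90 in resident libraries. The 3 groups did not overlap in it, with transplanted cells highest and cultured cells lowest. For the other immunoproteasome pairs, Psmb9 over Psmb6 was 0.84, 0.90, 0.78 and 0.95 in transplanted libraries, 0.26, 0.16 and 0.21 in cultured libraries and 0.73, 0.80, 0.68 and 0.77 in resident libraries, and Psmb8 over Psmb5 was 1.39, 1.34, 1.21 and 1.32 in transplanted libraries, 0.96, 1.04 and 1.07 in cultured libraries and 1.13, 1.24, 1.14 and 1.25 in resident libraries. In TPM both pairs were lowest in cultured libraries, and their transplanted and resident libraries overlapped. These TPM ratios were not adjusted for the trend of count on gene length. Psmb8 itself was higher in cultured than in resident cells in counts (log2 fold change 1.14 ± 0.13, adjusted p = 3.11e-05) and Psmb9 too (0.31 ± 0.11, adjusted p = 0.0323). In TPM Psmb8 was not called (limma 0.02 ± 0.10, adjusted p = 0.855) and Psmb9 was lower (limma -0.80 ± 0.11, adjusted p = 0.000109). With the length trend removed, Psmb8 was higher (0.26 ± 0.09, adjusted p = 0.025) and Psmb9 lower (-1.11 ± 0.15, adjusted p = 0.000139). Psmb10 was not called there (-0.0017, adjusted p = 0.99). Psmb5 stood at -0.02 on that scale, so the order of Psmb8 and Psmb5 in culture depended on the scale.

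**Figure D3:**
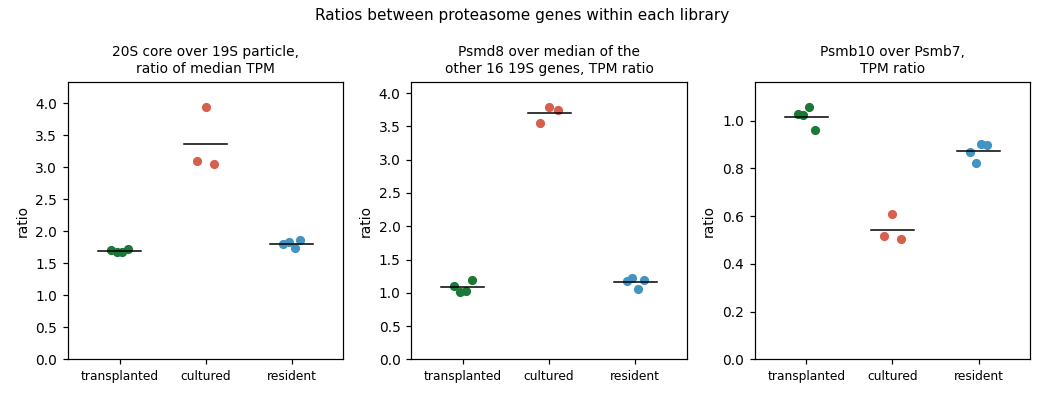
Ratios of TPM between proteasome genes within each library: the median of the 14 core genes over the median of the 17 19S genes, Psmd8 over the median of the other 16 19S genes, and Psmb10 over Psmb7; points are libraries (4 transplanted, 3 cultured, 4 resident) and lines are group means. Cultured libraries stand apart in all 3 ratios, above the others for the first 2 and below for Psmb10 over Psmb7.

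The ATPases of the 19S base, which form the ring that unfolds substrates, differed less. In counts 5 of 6 were higher in cultured than in resident cells (median 0.58 on the log2 scale). In TPM 5 of 6 were lower (median -0.53). Psmc3 had 169, 184, 151 and 154 TPM in transplanted libraries, 127, 122 and 122 TPM in cultured libraries and 189.7, 186, 191 and 196 TPM in resident libraries, cultured libraries being the lowest on this scale. Its counts went the other way (log2 fold change 0.48 ± 0.09, adjusted p = 0.00102), and its TPM fold change was -0.62 ± 0.08 (limma, adjusted p = 7.14e-05). Psmc1 had 124, 124, 122 and 118 TPM in transplanted libraries, 134, 112 and 130.1 TPM in cultured libraries and 126, 135, 139 and 128 TPM in resident libraries; cultured and resident libraries overlapped, and in counts the gene was 2.04-fold higher in cultured cells (log2 fold change 1.03 ± 0.09, adjusted p = 6.55e-06). Psmc2 had 151, 163, 154 and 143 TPM in transplanted libraries, 93.3, 78.8 and 91.3 TPM in cultured libraries and 163, 174, 163 and 176 TPM in resident libraries, with all cultured libraries below all others. As CPM, its count per library scaled by TMM and not by length, it had 114, 102 and 106 CPM in cultured libraries, against 93.7, 101, 94.1 and 105 CPM in resident libraries, which overlapped (0.16 ± 0.09, adjusted p = 0.143).

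Of the other base subunits, Psmd4, a ubiquitin receptor, had 179, 192, 178 and 168 TPM in transplanted libraries, 148, 145 and 149.7 TPM in cultured libraries and 197, 210.4, 204 and 199.6 TPM in resident libraries. Cultured libraries were lowest in TPM, whereas in counts Psmd4 was higher in cultured than in resident cells (log2 fold change 0.65 ± 0.09, adjusted p = 0.0001). The scaffold gene Psmd2 had 107, 109, 117 and 103 TPM in transplanted libraries, 121, 72.2 and 116 TPM in cultured libraries and 123, 111, 119 and 116 TPM in resident libraries, with cultured replicate 2 below every other library. In counts it was higher in cultured cells (log2 fold change 0.90 ± 0.15, adjusted p = 0.000516). The scaffold gene Psmd1 had 88.7, 83.8, 103 and 82.9 TPM in transplanted libraries, 59.1, 39.8 and 58.1 TPM in cultured libraries and 91.9, 89.2, 92.5 and 93.3 TPM in resident libraries, and cultured replicate 2 was again the lowest of all. It was not called in counts (0.28 ± 0.13, adjusted p = 0.0671), but was called higher in cultured cells without cultured replicate 2 (0.38, adjusted p = 0.000823).

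Among the lid members, Psmd8 stood apart. Psmd8, the lid subunit that in yeast is the last to join and lets the lid dock on the base, had 122, 114, 119 and 121 TPM in transplanted libraries, 314, 314 and 334 TPM in cultured libraries and 144, 143, 135 and 142 TPM in resident libraries. Every cultured library lay far above every sorted one, and no transplanted library reached a resident one. In counts Psmd8 had 399.7, 423 and 404 CPM in cultured libraries, against 86.7, 86.6, 81.1 and 88.4 CPM in resident libraries, which is 4.90-fold higher in cultured cells (log2 fold change 2.29 ± 0.09, adjusted p = 6.22e-08). It was also higher in TPM (limma 1.18 ± 0.08, adjusted p = 1.21e-06) and with the length trend removed (1.69 ± 0.09, adjusted p = 2.09e-07). Among the 17 19S members it was the one called higher on all 3 scales. Sem1, a lid subunit outside the name pattern, was also called higher on all 3 (below). The ratio of Psmd8 to the median of the other 16 19S genes was 1.11, 1.02, 1.03 and 1.19 in transplanted libraries, 3.56, 3.79 and 3.75 in cultured libraries and 1.18, 1.23, 1.06 and 1.19 in resident libraries. With Psmd8 left out, the ratio of core to 19S medians was still 1.75, 1.71, 1.69 and 1.74 in transplanted libraries, 3.18, 4.01 and 3.12 in cultured libraries and 1.82, 1.86, 1.77 and 1.91 in resident libraries.

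At the other end of the lid was Psmd11, whose product bridges the lid to the alpha ring and stabilises the whole particle. It had 159, 148, 153 and 145 TPM in transplanted libraries, 86.0, 81.3 and 83.4 TPM in cultured libraries and 160.4, 149, 173 and 148 TPM in resident libraries, with every cultured library below every sorted one. In CPM the values were 130.3, 131 and 120.1 CPM in cultured libraries, against 115, 107, 124 and 109.5 CPM in resident libraries, which overlapped, and the gene was not called (0.19 ± 0.09, adjusted p = 0.089). The other lid genes, Psmd3, Psmd6, Psmd7, Psmd12, Psmd13 and the deubiquitinase gene Psmd14, were all higher in counts, at 0.29 to 1.18 on the log2 scale. In TPM 4 of these 6 were lower in cultured cells, and Psmd13 and Psmd14 were not called.

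The promoters of the members, whichever way they moved, were read for short motifs. RefSeq (build GRCm38.p6) gave a window of 250 bases before an annotated start for 41 of the 49 members. The 4 windows shown are those of Psmb6 and Psmb5, the catalytic core genes with a match to the antioxidant response element core, and of Psmd8 and Psmd11, the lid genes with the highest and the lowest fold change. They lie at chr11:70525107-70525356, plus strand (Psmb6); chr14:54617996-54618245, minus strand (Psmb5); chr7:29180674-29180923, minus strand (Psmd8); and chr11:80428365-80428614, plus strand (Psmd11). Each is written 5′ to 3′ on the strand of its gene, with the last base next to the start, and capitals mark the match to TGACNNNGC, the core bound by the transcription factors Nfe2l1 and Nfe2l2.
Psmb6: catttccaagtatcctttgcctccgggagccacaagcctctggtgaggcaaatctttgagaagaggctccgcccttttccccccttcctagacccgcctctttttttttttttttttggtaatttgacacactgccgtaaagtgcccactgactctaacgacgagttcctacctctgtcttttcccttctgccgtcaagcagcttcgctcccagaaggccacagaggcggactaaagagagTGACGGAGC
Psmb5: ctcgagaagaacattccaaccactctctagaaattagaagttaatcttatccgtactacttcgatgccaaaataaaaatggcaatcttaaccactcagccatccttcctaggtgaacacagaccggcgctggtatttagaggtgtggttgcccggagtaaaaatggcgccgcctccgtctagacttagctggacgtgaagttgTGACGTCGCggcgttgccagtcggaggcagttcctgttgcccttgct
Psmd8: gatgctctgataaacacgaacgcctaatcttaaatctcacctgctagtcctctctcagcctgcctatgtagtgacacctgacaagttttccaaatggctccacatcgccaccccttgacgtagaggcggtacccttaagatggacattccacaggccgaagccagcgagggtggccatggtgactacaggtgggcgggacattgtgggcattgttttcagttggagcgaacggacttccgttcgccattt
Psmd11: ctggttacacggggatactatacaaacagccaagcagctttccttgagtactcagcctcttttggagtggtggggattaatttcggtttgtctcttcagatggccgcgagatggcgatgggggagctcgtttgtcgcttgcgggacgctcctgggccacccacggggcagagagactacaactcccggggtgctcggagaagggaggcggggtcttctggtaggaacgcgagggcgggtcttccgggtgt

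The match began at position -9 in Psmb6 and at -47 in Psmb5, counted back from the start at which each window ends. The windows of Psmd8 and Psmd11 held none. The annotated span of the Psmb6 gene begins at chr11:70525324, inside its window, so the Psmb6 match lies after that position and not upstream of the gene. On both strands, TGACNNNGC was found in 5 of the 41 members (12.2%), against 11.5% of all 27025 genes with a window. CCAAT, the box of the factor NF-Y, was found in 15 members (36.6%), against 37.5% of all genes. GGGCGG, the GC box of Sp1, was found in 22 members (53.7%), against 35.4% of all genes. Within the core the counts were 2, 6 and 5 of 11 genes for the motifs in this order, and within the 19S particle 2, 4 and 9 of 14. A match describes the letters of the window and is no measured site. Nfe2l2, which encodes a stress-response factor, had 304, 295, 259 and 282 TPM in transplanted libraries, 44.0, 34.4 and 37.8 TPM in cultured libraries and 278, 268, 261 and 286 TPM in resident libraries, and was lower in cultured than in resident cells (log2 fold change -1.72 ± 0.12, adjusted p = 1.31e-06). Nfe2l1, whose product raises proteasome genes when the proteasome is inhibited, had 35.0, 31.7, 42.2 and 32.9 TPM in transplanted libraries, 21.0, 21.2 and 23.6 TPM in cultured libraries and 33.9, 30.6, 35.5 and 29.5 TPM in resident libraries. It was higher in cultured than in resident cells in counts (0.41 ± 0.11, adjusted p = 0.00742) and with the length trend removed (0.71 ± 0.10, adjusted p = 0.000153). In TPM it was lower (limma -0.54 ± 0.11, adjusted p = 0.00113).

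Of the activators, Psme1 and Psme2 encode the interferon-induced ring that opens the core gate without the 19S particle. Psme2 had 190.3, 204, 197 and 191 TPM in transplanted libraries, 275, 359 and 286 TPM in cultured libraries and 201, 209, 226 and 219 TPM in resident libraries, cultured libraries being highest, and its log2 fold change was 1.65 ± 0.14, adjusted p = 4.81e-06 in cultured against resident cells. Psme1 had 183, 209, 213 and 195 TPM in transplanted libraries, 194, 268 and 197 TPM in cultured libraries and 215, 213, 213 and 224 TPM in resident libraries, with cultured and resident libraries overlapping, and in counts its log2 fold change was 1.15 ± 0.15, adjusted p = 9.84e-05. The ratio of Psme1 to Psme2 was 0.96, 1.03, 1.08 and 1.02 in transplanted libraries, 0.71, 0.75 and 0.69 in cultured libraries and 1.07, 1.02, 0.94 and 1.02 in resident libraries. This ratio and the Psme2 fold change depend on how reads were split between Psme2 and its copy Psme2b (below). It was not tested if the partners were less even in culture with both copies counted. Together the copies had 1891.7 to 2042.6 unscaled counts in transplanted, 3708.1 to 5308.8 in cultured and 2041.0 to 2290.4 in resident libraries. Psme3, the nuclear activator, and Psme4, a large activator, lay between 7.60 and 14.4 TPM in all libraries. Both were higher in cultured than in resident cells in counts, at 1.15 ± 0.14 and 0.88 ± 0.21, and neither was called in TPM. The inhibitor gene Psmf1 was not called in counts (0.21 ± 0.11, adjusted p = 0.129), was lower in TPM (limma -0.84 ± 0.12, adjusted p = 0.000148) and was higher with the length trend removed (0.30 ± 0.10, adjusted p = 0.0226).

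Psme2b went against its parent. It had 90.4, 82.5, 78.8 and 103 TPM in transplanted libraries, 3.95, 4.03 and 4.24 TPM in cultured libraries and 76.0, 76.2, 92.3 and 86.5 TPM in resident libraries, with the cultured libraries far below the others. The log2 fold change was -3.22 ± 0.15, adjusted p = 1.25e-07 in cultured against resident cells, or 9.34-fold lower. Psme2b is a single-exon gene whose transcript is 99.3% identical to that of Psme2, which has 11 exons, over 716 aligned bases. The counts of both genes are therefore uncertain wherever the authors' counting split reads between the copies. The ratio of Psme2b to Psme2 was 0.475, 0.404, 0.4 and 0.542 in transplanted libraries, 0.0143, 0.0112 and 0.0148 in cultured libraries and 0.378, 0.364, 0.408 and 0.395 in resident libraries.

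The assembly chaperones did not move as a block. Of the 7, 4 were higher and 1 lower in cultured than in resident cells in counts, 1 higher and 4 lower in TPM, and 2 higher and 4 lower with the length trend removed (median -0.44), set against the shares of all genes given above for each scale. Psmg4, a chaperone of the alpha ring and the shortest member, had 24.8, 21.1, 26.3 and 19.9 TPM in transplanted libraries, 47.1, 56.9 and 36.6 TPM in cultured libraries and 37.2, 30.7, 24.5 and 26.5 TPM in resident libraries. Cultured and resident libraries overlapped by 1 library in TPM, and it was higher in cultured cells in counts (log2 fold change 1.79 ± 0.24, adjusted p = 0.000119) and in TPM (limma 0.63 ± 0.18, adjusted p = 0.00977), but lower once the length trend was removed (-0.51 ± 0.18, adjusted p = 0.0258). Psmg2, which pairs with Psmg1 in the same task, had 40.4, 44.1, 52.2 and 38.9 TPM in transplanted libraries, 15.4, 16.3 and 16.5 TPM in cultured libraries and 40.4, 44.0, 46.1 and 43.6 TPM in resident libraries. Cultured libraries were well below the others, and it was lower in counts (-0.33 ± 0.13, adjusted p = 0.0405), a call that was lost without any one of 5 of the 7 libraries. Psmd5, a chaperone of the base, had 67.0, 52.9, 64.0 and 59.0 TPM in transplanted libraries, 31.4, 20.7 and 35.5 TPM in cultured libraries and 63.5, 62.4, 69.1 and 65.0 TPM in resident libraries; it was not called in counts (-0.07 ± 0.15, adjusted p = 0.69) and was lower in TPM (limma -1.16 ± 0.17, adjusted p = 0.000155). The base chaperones Psmd9 and Psmd10 were higher in counts, at 1.15 ± 0.11 and 0.93 ± 0.12, and were not called in TPM.

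A pair of members carries the name pattern without being part of the proteasome. Psmc3ip, a cofactor of meiotic recombination, had 3.86, 4.37, 4.19 and 2.38 TPM in transplanted libraries, 2.81, 2.72 and 2.16 TPM in cultured libraries and 6.70, 5.94, 3.74 and 5.82 TPM in resident libraries, and was not called in counts (-0.00 ± 0.31, adjusted p = 0.992) but was lower in TPM (limma -0.86 ± 0.18, adjusted p = 0.00147). Psme3ip1, a protein that binds Psme3, had 48.5, 44.9, 46.1 and 48.7 TPM in transplanted libraries, 21.3, 15.4 and 22.0 TPM in cultured libraries and 51.6, 55.5, 48.2 and 51.1 TPM in resident libraries. Its cultured libraries lay below the others, and it was lower in counts in cultured cells (-0.32 ± 0.13, adjusted p = 0.0472), a call lost without resident replicate 1, 2 or 4.

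Transcript length moved with the fold change in counts. From the ratio of count to TPM, core genes had 0.18 to 0.43 of the length of the median gene and 19S genes 0.38 to 1.11. With the length trend removed, the core median was 0.46 and the 19S median 0.15, against 1.56 and 0.65 in counts, so the particles lay closer together and in the same order. Of the 14 core genes 10 were then called higher, and of the 17 19S genes 7 were called higher and 2, Psmc2 and Psmc5, lower. The part of length in what remains was not tested.

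**Figure D4:**
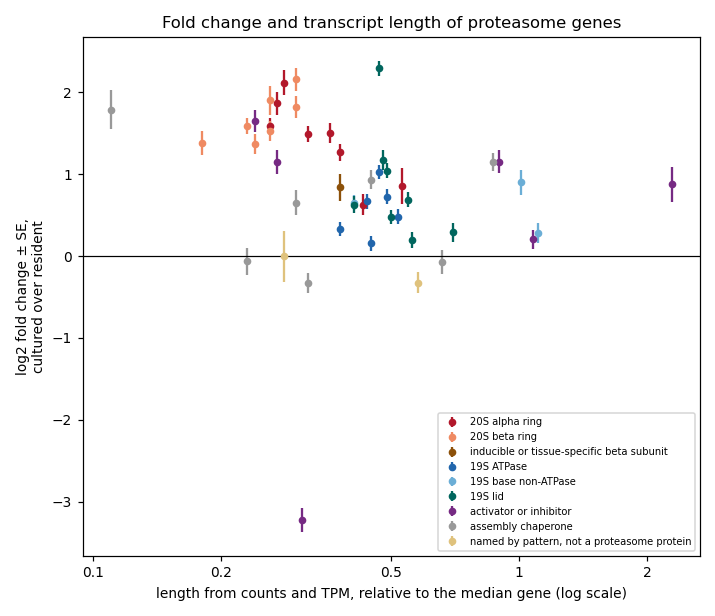
Log2 fold change ± SE in cultured (n = 3) over resident (n = 4) microglia, in expected counts, against transcript length relative to the median gene (log scale), for the 48 members tested; colours mark subcomplexes. Core genes (0.18 to 0.43) lie at shorter lengths and higher fold changes than most 19S genes, Psmd8 lies above 19S genes of like length, and Psme2b lies lowest at -3.22.

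Genes that work with the proteasome were measured in the same fit. Sem1, a small lid subunit outside the name pattern, had 151, 137, 165 and 157 TPM in transplanted libraries, 777, 1010.3 and 526 TPM in cultured libraries and 182, 159, 174 and 161 TPM in resident libraries. Every cultured library was above every sorted one, and its log2 fold change was 3.37 ± 0.24, adjusted p = 1.99e-06 in cultured against resident cells. It remained higher in TPM (limma 2.14 ± 0.19, adjusted p = 6.95e-06) and, by less, with the length trend removed (0.85 ± 0.11, adjusted p = 9.14e-05). The ubiquitin receptor gene Adrm1, also outside the pattern, was higher in cultured cells in counts (0.37 ± 0.10, adjusted p = 0.00847) and lower both in TPM (limma -0.73 ± 0.09, adjusted p = 6.99e-05) and with the length trend removed (-0.30 ± 0.10, adjusted p = 0.0199). The tallies of the lists around the proteasome depended on the scale, as did those of all genes tested (37.9% higher and 37.2% lower in counts, 17.4% and 68.2% in TPM, 34.4% and 39.4% with the length trend removed). Of 12 proteasome-associated factors 8 were higher and 1 lower in counts, 0 higher and 6 lower in TPM by limma, and 8 higher and 2 lower with the length trend removed. Akirin2, which guides proteasomes into the nucleus, was lower on all 3 scales (-1.52 ± 0.19, adjusted p = 8.01e-05 in counts). Of 5 genes of the p97 unfoldase, which pulls substrates out of complexes and membranes, 3 were higher and 1 lower in counts, 0 and 4 in TPM, and 2 and 1 with the length trend removed. Its cofactor gene Nploc4 had the largest change in counts (1.28 ± 0.22, adjusted p = 0.00066) and was not called in TPM (limma 0.14 ± 0.19, adjusted p = 0.511). Of 6 cytosolic peptidases, which trim the peptides that proteasomes release, 4 were higher and 0 lower in counts, 1 and 3 in TPM, and 5 and 0 with the length trend removed. The aminopeptidase gene Npepps was higher on all 3 scales (1.98 ± 0.10, adjusted p = 2.29e-07 in counts, limma 0.94 ± 0.12, adjusted p = 5.28e-05 in TPM).

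Transplanted cells, set against the cultured libraries, showed the members lower in counts. This comparison shares the cultured libraries with the one above, so it is no independent evidence on them. In counts 40 of the 48 members were lower and 1, Psme2b, higher in transplanted than in cultured cells, where 35.5% of the 12284 genes tested were lower and 36.9% higher, 72.4% in all. The median log2 fold change of the members was -0.99, against 0.05 for all genes, and count levels did not overlap at 42 members (73.3% of all genes). All 14 core genes were lower, with a median of -1.78. Of the 17 19S genes 16 were lower, with a median of -0.76. Among the members that were lower, Psmd8 had the largest difference (-2.54 ± 0.10, adjusted p = 3.57e-08), followed by Psmb6 (-2.36 ± 0.16, adjusted p = 7.24e-07), Psma6 (-2.24 ± 0.16, adjusted p = 9.79e-07) and Psmb4 (-2.22 ± 0.19, adjusted p = 4.31e-06). Psmd1 was not called (-0.32 ± 0.14, adjusted p = 0.065) unless cultured replicate 2 was left out (-0.45, adjusted p = 0.00335). Psmc2 (-0.32 ± 0.11, adjusted p = 0.0267) and Psmd11 (-0.26 ± 0.10, adjusted p = 0.0467) were the members nearest to 0 among the 19S genes called. Both lost their call when 1 library was left out, Psmd11 in 6 and Psmc2 in 5 of 7 cases.

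In TPM the median over all genes was 0.98 and the 2 particles parted: 13 core genes were lower (median -0.64), and 12 19S genes were higher and 1, Psmd8, lower (median 0.35). Over all members 19 were higher and 16 lower with a median of 0.12, where 67.9% of all genes tested were called higher and 16.2% lower. With the length trend removed 25 members were lower and 7 higher (median -0.36, against 0.07 for all genes), where 34.2% of all genes were lower and 36.9% higher. The activator copy Psme2b was 9.93-fold higher in transplanted than in cultured cells (log2 fold change 3.31 ± 0.17, adjusted p = 1.58e-07), with the same uncertainty of its counts.

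Transplanted and resident cells were close, and the members lay slightly lower in transplanted cells. In counts 9 of the 48 members were lower, where 5.86% of the 11929 genes tested were lower and 7.17% higher. Separately, 18 of 48 had every transplanted library below every resident library in TPM. The share of all genes at which this held was not measured, so that count has no background beside it. No member was called higher by edgeR. At an unadjusted p under 0.05 there were 0 higher and 23 lower, where 3290 of the 11929 genes passed in either direction. DESeq2 called 0 higher and 15 lower, where 950 of 16468 genes were lower. With all 3 groups in one fit, 1 member was lower, where 405 of 12590 genes were. The median log2 fold change was -0.15, against 0.02 for all genes, and it was below 0 at 47 members, as at 46.8% of all genes tested. Count levels did not overlap at 16 members, and at 19.7% of all genes. In TPM 9 members were lower, where 5.31% of all genes were, and with the length trend removed 4 were, where 6.20% of all genes were. The libraries of both groups also enter the comparisons above. In the core 8 of 14 genes were lower (median -0.23), and in the 19S particle 1 of 17 (median -0.14). The count moved with single libraries: 15 members were lower without transplanted replicate 2, and 5 without resident replicate 2 or transplanted replicate 4.

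**Figure D5:**
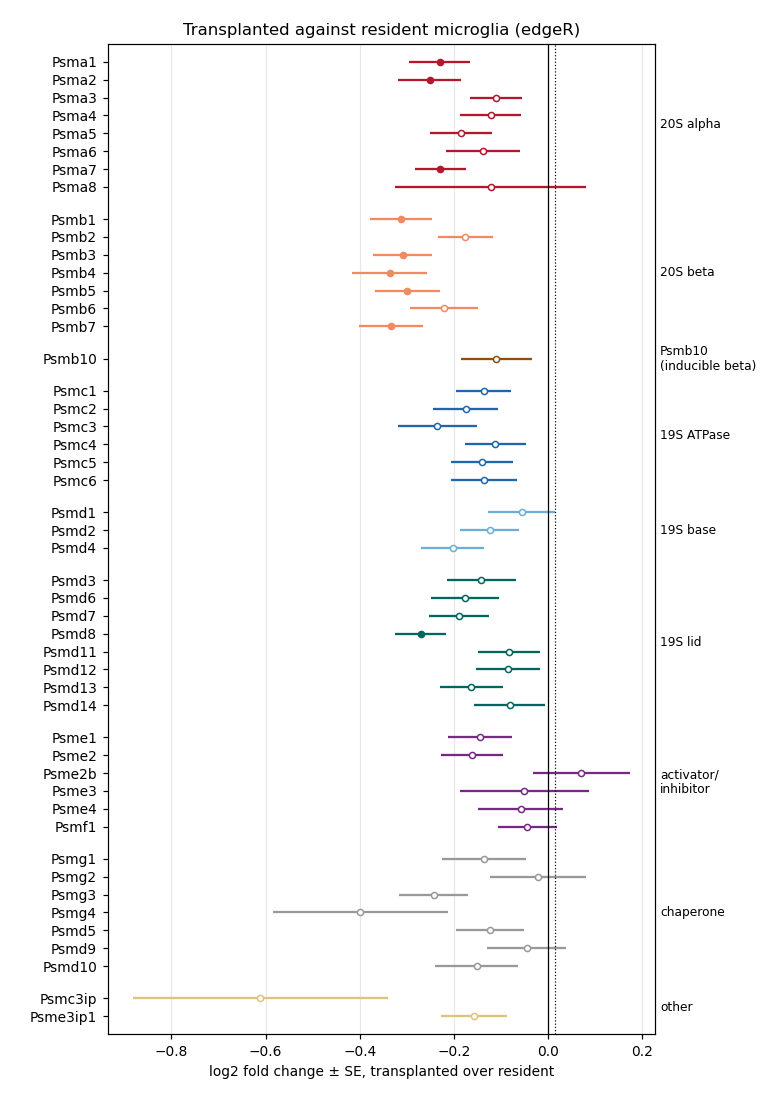
Log2 fold change ± SE of each member in transplanted (n = 4) over resident (n = 4) microglia, in expected counts; filled points have an adjusted p under 0.05, and the dotted line is the median of all genes tested (0.02). All points but Psme2b lie left of 0, and the 9 filled points are 5 beta genes, 3 alpha genes and Psmd8.

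The beta ring held 5 of the 9. All 7 of its genes had every transplanted library below every resident library in TPM, for which the share of all genes was not measured. Psmb4 had the largest difference of the ring, at 149.6, 162, 147 and 138 TPM in transplanted libraries, against 191, 197, 171 and 179 TPM in resident libraries (log2 fold change -0.34 ± 0.08, adjusted p = 0.0202). Psmb7 was also lower (-0.33 ± 0.07, adjusted p = 0.00904), as were Psmb1 (-0.31 ± 0.07, adjusted p = 0.011), Psmb3 (-0.31 ± 0.06, adjusted p = 0.00859) and Psmb5 (-0.30 ± 0.07, adjusted p = 0.0179). Fitted to the counts, Psmb7 was 20.7% and Psmb1 19.5% below the resident level. Psmb6 (-0.22 ± 0.07, adjusted p = 0.0733) and Psmb2 (-0.18 ± 0.06, adjusted p = 0.0758) were not called. Of the alpha ring, Psma7 (-0.23 ± 0.05, adjusted p = 0.0197), Psma2 (-0.25 ± 0.07, adjusted p = 0.0342) and Psma1 (-0.23 ± 0.06, adjusted p = 0.0417) were lower. Psma1 lost its call without any one of 5 of the 8 libraries and Psma2 without any one of 4, and Psma7 and Psmb4 lost theirs without resident replicate 2 or transplanted replicate 4. In the fit of all 3 groups none of these 8 core genes was called, Psmb1, Psmb3, Psmb5 and Psmb7 included.

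In the 19S particle Psmd8 was the one gene called, at 122, 114, 119 and 121 TPM in transplanted libraries, against 144, 143, 135 and 142 TPM in resident libraries (log2 fold change -0.27 ± 0.05, adjusted p = 0.00844). Its groups did not overlap, and it kept its call under every alternative tried, as none of the other 8 did. The other 16 19S genes lay between -0.23 (Psmc3, adjusted p = 0.0978) and -0.06 (Psmd1, adjusted p = 0.653). The activator and inhibitor genes lay between -0.16 for Psme2 and 0.07 for Psme2b, and none of the 6 was called. Among the 7 chaperones the nearest to the threshold was Psmg3, of the alpha ring, at 56.4, 52.8, 56.8 and 61.1 TPM in transplanted libraries, against 63.9, 67.2, 66.1 and 65.0 TPM in resident libraries (-0.24 ± 0.07, adjusted p = 0.0534). Psmb10 was not called (-0.11 ± 0.07, adjusted p = 0.377). Of the genes around the proteasome, Pomp, the maturation factor that helps beta subunits into the half-formed core, was lower in transplanted cells (-0.27 ± 0.08, adjusted p = 0.0445), and the other 11 associated factors measured were not called.

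Markers of other cells differed between these groups too. Lymphocyte and neutrophil markers summed to 2.3 to 4.4 TPM in transplanted and 38.9 to 56.4 TPM in resident libraries, with the T cell marker Cd3e at 0 in every resident library and the B cell gene Cd79b holding most of the sum, at 0.802 TPM on average in transplanted cells and 48.7 TPM in resident cells. Border macrophage and monocyte markers summed to 1459.5 to 2157.8 TPM in transplanted and 663.3 to 1051.5 TPM in resident libraries, and Lyz2 was higher and 5 of the 7 tested were lower. Endothelial markers summed to 8.8 to 11.7 TPM in transplanted and 26.4 to 38.6 TPM in resident libraries. Their part in the differences of the proteasome genes was not tested.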

How the data were processed

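Bulk RNA was sequenced from 4 transplanted, 3 cultured and 4 resident microglia libraries made with a Smart-Seq protocol from 1 ng of RNA, per the labels' protocols. The submitters' processing notes name HISAT, Bowtie2 and GRCm38.p6. For versions, read counter and strand, the sources used here give nothing. The deposited table holds an expected count and a TPM per gene and library, per the file headers. It also holds 11 FPKM columns, which were not used. Symbols were matched to 16845 of 16894 identifiers (99.7%), and 49 had no match.

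Expected counts were rounded to whole numbers, filtered with filterByExpr, scaled by TMM and tested in edgeR 4.0.16 (R 4.3.3) with the quasi-likelihood test, each comparison on its own groups and with no covariate. A gene was called when its p, adjusted by Benjamini and Hochberg's method across the whole table tested, was under 0.05; the procedure was checked on simulated counts. TPM were tested with limma 3.58.1 on log2(TPM + 1) over genes with a mean TPM of at least 1, so these fold changes understate changes of low genes. For the length scale, a lowess trend (span 0.3) of log count on length, taken from the ratio of count to TPM, was removed from each library. Other alternatives were DESeq2 1.42.0, a pseudocount of 0.1, no filter, all groups in one fit, a replicate block, and leaving out each library. Depth was 18692721 to 28219696 counts per library.

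Members given library by library were, per subcomplex, the one with the highest mean TPM and those with the highest and the lowest log2 fold change in cultured against resident cells, together with the catalytic beta subunits, Psme1, Psme2 and the members called between transplanted and resident cells. Of the lists around the proteasome that are reported, the gene with the largest absolute change, and also Nfe2l1, Nfe2l2, Psmb8 and Psmb9, were named. Results on another list are not reported here. Other genes are named for their role, chosen after their values were seen. The members and lists were chosen with earlier results of these data known.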

Additional observations from a re-analysis of the deposited data

Results flagged for a closer look

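Of 102 sets of 4 libraries examined, 3 had 1 library whose gap to the nearest of the others, divided by the whole range, was above Dixon's critical value for 4 samples; chance gives about 1 in 20, or 5.1 sets. Psmc5, an ATPase of the 19S base, had 165 TPM in transplanted replicate 3, against 136 to 137 TPM in the other transplanted libraries. Psme3, the nuclear activator, had 14.4 TPM in the same library, against 8.92 to 9.74 TPM in the others of its group. Psme1 had 224 TPM in resident replicate 4, against 213 to 215 TPM in the other resident libraries. Neither Psmc5, Psme3 nor Psme1 was called between transplanted and resident cells.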

How the results depend on the processing

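Scale decided the direction of the 19S genes, and the cause was not tested. For cultured against resident cells, TPM gave 14 members higher, 21 lower and a median of -0.21 (-0.22 with a pseudocount of 0.1, -0.20 with no filter, each with 14 and 21), and the removed length trend gave 23, 10 and 0.22. For transplanted against cultured cells, TPM gave 19 higher, 16 lower and a median of 0.12 (the same with a pseudocount of 0.1, and 20, 16 and 0.12 with no filter), and the removed length trend gave 7, 25 and -0.36. No filter on counts gave a median of 0.82 for cultured against resident cells, and all groups in one fit gave 2 members higher for transplanted against cultured cells. For transplanted against resident cells, 15 members were lower with DESeq2, 1 with all groups in one fit and 4 with the length trend removed.

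Leaving out 1 library gave 37 to 39 members higher, 1 to 4 lower and medians of 0.76 to 0.94 for cultured against resident cells. The median of 0.76 was without cultured replicate 2. It gave 1 to 2 higher, 37 to 42 lower and medians of -1.07 to -0.91 for transplanted against cultured cells, and 5 to 15 lower with medians of -0.21 to -0.13 for transplanted against resident cells.

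Whether same-numbered libraries share a source is not stated. Their deviations from the group means correlated at -0.07 to 0.053, which over so few libraries cannot exclude a shared source. With the replicate number as a block, 36 members were higher and 1 lower in cultured against resident cells, 1 higher and 37 lower in transplanted against cultured cells, and 5 lower in transplanted against resident cells.

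Over the 48 members tested in cultured against resident cells, 6 fold changes were below 0 in counts, 28 in TPM and 20 with the length trend removed. Sign changes are listed here only for members given library by library and called on at least 1 of the scales compared. In cultured against resident cells, these genes changed sign in TPM as follows, with a pseudocount of 1 (with or without filter) and then 0.1: Psma3 -0.26 and -0.26, Psmb10 -0.30 and -0.30, Psmc1 -0.0776 and -0.0782, Psmc2 -0.94 and -0.95, Psmc3 -0.62 and -0.62, Psmd1 -0.82 and -0.83, Psmd11 -0.90 and -0.91, Psmd2 -0.22 and -0.22, and Psmd4 -0.45 and -0.46. With the length trend removed, Psma3 stood at -0.068, Psmb10 at -0.0017, Psmb3 at -0.33, Psmb5 at -0.019, Psmc2 at -0.49, Psmc3 at -0.023, Psmd4 at -0.098, Psme1 at -0.056 and Psmg4 at -0.51. In transplanted against cultured cells the same pair of TPM values was 0.13 and 0.13 for Psma3, 0.22 and 0.22 for Psmb10, 0.79 and 0.80 for Psmc2, 0.41 and 0.41 for Psmc3, 0.78 and 0.79 for Psmd1, 0.85 and 0.85 for Psmd11, 0.12 and 0.12 for Psmd2, 0.28 and 0.28 for Psmd4, and 1.06 and 1.08 for Psmd5. The length scale gave 0.14 for Psmb3, 0.31 for Psmc2, 0.095 for Psmd11 and 0.28 for Psmg4. Depth limits Psma8, Psmc3ip, Psme3, Psme4 and Psmb11 most, as the least abundant members.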
